A study of Mus musculus with 13 samples.

Results

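Th2 program genes were followed in mouse T cells that had been expanded as Th17 cells. The 9 genes were Gata3, Il4, Il5, Il13, Il9, Il24, Il1rl1, Ccr8 and Pparg, taken by symbol from the 21073 genes of the deposited expression table, and all 9 were found. Th17 cells are CD4+ helper T cells that make interleukin-17 (IL-17), while Th2 cells are the helper subset of allergic and anti-parasite responses. GATA3, the transcription factor that directs Th2 differentiation, opens and activates a cluster of cytokine genes holding Il4, Il5 and Il13. IL-4 acts back on the T cell through STAT6, IL-5 recruits eosinophils, and IL-13 acts on epithelium and macrophages. ST2, the product of Il1rl1, is the receptor for the alarmin IL-33, and PPARγ is a lipid-activated nuclear receptor that supports ST2 expression and cytokine output in Th2 cells.

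Messenger RNA was sequenced in 13 libraries, 10 of them from Th17 cultures, and all mice had the C57BL/6J background. WT mice and DKI mice, which are deficient in STAT5 tetramers, were immunized with the myelin peptide MOG35-55 in complete Freund's adjuvant. Spleen and lymph node cells taken on day 14 were grown with peptide in Th17-polarizing culture, and CD4+ T cells were sorted 3 days later. The 4 groups were WT (n = 2), DKI (n = 2), DKI expanded without added CCL17 (n = 3) and DKI expanded with CCL17 (n = 3). CCL17 is a chemokine that binds CCR4. The titles thus give 2 DKI groups with no added CCL17. Th17 libraries with CCL17 in their titles are here called the CCL17 experiment, and the others the WT and DKI experiment. These names follow the titles, and the labels do not say whether the 2 sets were separate experiments or batches. The series' design text says that the mice for T cells received no pertussis toxin, whereas the treatment protocol attached to every sample includes it. Whether replicates came from separate mice or from pools is not given in the sources used here, so p-values measure the spread between these libraries. Ages of the mice are not given in those sources either. The other 3 libraries, 1 each, were bone marrow monocytes, spinal cord monocytes and APCs, which are antigen-presenting cells that arose from monocytes in the spinal cord, all from DKI mice with experimental autoimmune encephalomyelitis induced by the peptide, adjuvant and pertussis toxin.

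Levels are given as log2(RPKM + 1), where RPKM is the read number scaled to gene length and library size, and as RPKM where genes are compared with each other. Estimated depth was 18000000 to 20400000 reads in the WT and DKI libraries and 12600000 to 15800000 in the libraries of the CCL17 experiment. Summed over 6 T cell markers, RPKM was 2223 to 2406 in WT and DKI cells, 1508 to 1839 in the CCL17 experiment and 0.0467 to 21.0 in the myeloid libraries. Stat5a and Stat5b were expressed in every group, and as their RNA level does not show an amino acid change it does not check the DKI label. Il17a stood at 8.67 to 8.68 in WT, at 7.57 and 10.38 in DKI, and at 10.24 to 11.52 in the CCL17 experiment.

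Over the 10 Th17 libraries, the 9 genes spanned a wide range of levels. Il13 led with a mean of 107.3 RPKM, followed by Ccr8 (25.8 RPKM), Gata3 (23.7), Il1rl1 (5.90) and Pparg (3.38). The other cytokine genes were lower, with Il5 at 1.38 RPKM, Il24 at 1.27, Il9 at 0.702 and Il4 at 0.668. Ccr8 and Gata3 differed by less than the spread of Ccr8 between libraries, and so did Il5 and Il24, and Il9 and Il4. A gene was taken as near zero in a library where its RPKM was under 0.5. By that limit none of the 9 was near zero in all 10 libraries, and Il13, Ccr8, Gata3 and Il1rl1 were near zero in 0 of 10. Il4 and Il9 were near zero in 4 libraries each, Il5 and Pparg in 3 each, and Il24 in 2. In WT replicate 1, Il4, Il5, Il9 and Il24 all had 0 reads, which with 3 reads as the limit allows up to 0.197, 0.108, 0.311 and 0.144 RPKM, for counting error only.

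**Figure D1:**
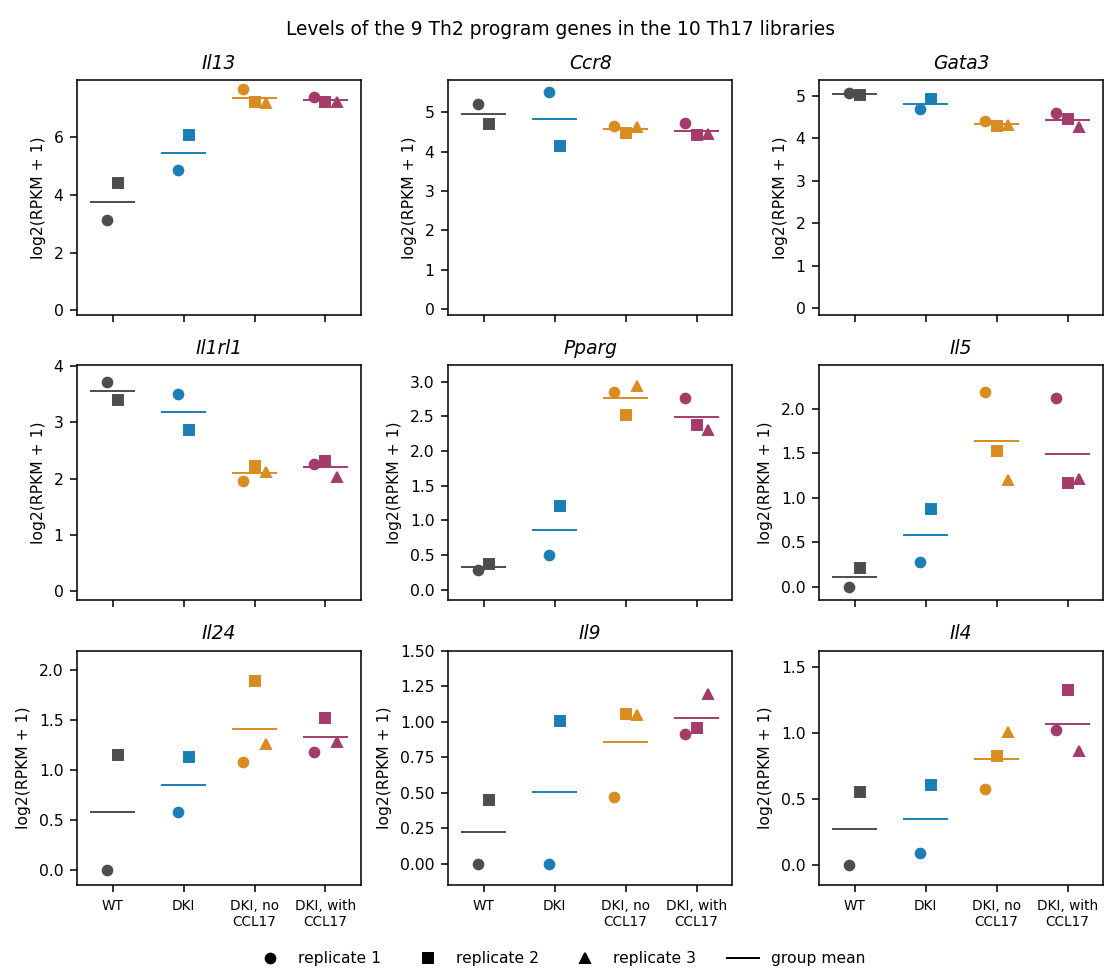
Levels of the 9 genes in the 10 Th17 libraries, on a log2(RPKM + 1) axis that starts just under 0 and has its own upper end in each panel. Points are libraries, shaped by replicate number, and lines are group means. Il13 and Pparg are higher in all 6 libraries of the CCL17 experiment than in the WT and DKI libraries, Gata3 and Il1rl1 are lower, and the 2 groups of that experiment overlap in all 9 genes.

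The 3 Th2 cytokine genes of the cluster lie on chromosome 11 (GRCm38.p6) in the order Kif3a, Il4, Il13, Rad50, Il5, Irf1. Il4 spans chr11:53612460-53618665 and Il13 spans chr11:53631323-53634702, both on the minus strand, and Il5 spans chr11:53720794-53725103 on the plus strand. RefSeq lists 2 starts for Il4. The promoters are shown because these neighbours differed so widely in level, and that of Il1rl1 because it moved against Il13. Each sequence runs from 250 bases before the start to 50 after it, 5′ to 3′ on the gene's strand, as given by RefSeq for GRCm38.p6. Capitals mark matches, on either strand, to AGATAA or TGATAA (forms bound by GATA factors), TTCNNNGAA (STAT5 and other STATs) or the STAT6 form of that motif, in which TTC and GAA stand 4 bases apart. The Il13 window is chr11:53634653-53634952, the Il4 window, at the start of the gene model, is chr11:53618616-53618915, and the sequence at the other start follows it. The Il5 window is chr11:53720544-53720843, and the Il1rl1 window, at the first of its listed starts, is chr1:40429320-40429619.
Il13: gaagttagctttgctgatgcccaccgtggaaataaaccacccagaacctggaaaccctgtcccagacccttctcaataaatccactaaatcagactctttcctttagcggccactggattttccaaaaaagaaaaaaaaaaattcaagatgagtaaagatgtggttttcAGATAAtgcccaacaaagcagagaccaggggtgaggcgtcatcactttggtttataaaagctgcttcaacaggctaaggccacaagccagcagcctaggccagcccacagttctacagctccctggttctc
Il4: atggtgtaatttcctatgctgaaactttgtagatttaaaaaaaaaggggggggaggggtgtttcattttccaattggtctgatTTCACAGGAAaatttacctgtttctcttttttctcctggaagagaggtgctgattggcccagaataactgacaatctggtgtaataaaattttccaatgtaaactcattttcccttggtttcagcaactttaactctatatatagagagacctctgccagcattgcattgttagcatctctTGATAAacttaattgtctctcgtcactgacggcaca
Il4, other start: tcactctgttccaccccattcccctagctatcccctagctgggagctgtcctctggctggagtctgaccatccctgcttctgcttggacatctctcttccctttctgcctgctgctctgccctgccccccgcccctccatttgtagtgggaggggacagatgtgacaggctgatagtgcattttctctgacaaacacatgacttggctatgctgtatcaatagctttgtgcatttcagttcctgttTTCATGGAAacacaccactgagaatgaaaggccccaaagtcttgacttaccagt
Il5: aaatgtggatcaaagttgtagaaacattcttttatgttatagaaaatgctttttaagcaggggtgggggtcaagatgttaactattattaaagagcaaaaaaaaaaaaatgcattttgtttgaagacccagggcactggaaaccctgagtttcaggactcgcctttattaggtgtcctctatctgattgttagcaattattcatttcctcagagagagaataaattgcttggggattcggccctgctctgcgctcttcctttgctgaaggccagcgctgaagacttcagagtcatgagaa
Il1rl1: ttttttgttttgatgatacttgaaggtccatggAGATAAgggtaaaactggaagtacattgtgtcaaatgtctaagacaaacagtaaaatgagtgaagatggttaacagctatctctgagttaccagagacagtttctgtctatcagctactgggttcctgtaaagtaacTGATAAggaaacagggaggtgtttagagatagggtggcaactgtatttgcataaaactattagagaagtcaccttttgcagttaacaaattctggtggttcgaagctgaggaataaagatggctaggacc
Counting the start as +1, Il13 held AGATAA at -81, and Il4 held the STAT6 form at -167 and TGATAA at 15. Il1rl1 held AGATAA at -217 and TGATAA at -80, and the Il5 window held none of the 4 motifs. The other Il4 start, with the window chr11:53617289-53617588, held TTCNNNGAA at -4, the only match to that motif among the promoters of the 9 genes. In windows not shown, Il9 held the STAT6 form at -184, Ccr8 held AGATAA at -239 and a further Il1rl1 start held AGATAA at -103, while Gata3 and Pparg held none. The table matched 8 of the 9 genes with 12 promoters, and Il24 had no entry. Among all 32851 mouse promoters of this length, AGATAA occurred in 11.2%, TGATAA in 9.05%, TTCNNNGAA in 8.3% and the STAT6 form in 6.95%. The matches describe letters in these windows and show no binding.

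Il13 dominated the cytokine genes. It stood at 3.13 and 4.40 in WT, at 4.84 and 6.05 in DKI, at 7.66, 7.21 and 7.17 without CCL17 and at 7.39, 7.20 and 7.22 with CCL17. Both DKI libraries lay above both WT libraries, and all 6 libraries of the CCL17 experiment lay above both. In RPKM, Il13 was 13.9 ± 8.70 in WT (SD, n = 2), 46.5 ± 26.6 in DKI (n = 2), 164 ± 32.4 without CCL17 (n = 3) and 154 ± 11.5 with it (n = 3).

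Il4, whose protein is the classical Th2 inducer, was at the bottom of the range, at 0 and 0.55 in WT, 0.09 and 0.61 in DKI, 0.58, 0.83 and 1.01 without CCL17, and 1.02, 1.32 and 0.86 with it. These levels rest on 0 to 20 estimated reads per library. In the 9 libraries with Il4 reads, the RPKM of Il13 was 43.2 to 424 times that of Il4, and that of Il5 was 0.344 to 7.24 times that of Il4. Il5 stood at 0 and 0.21 in WT, 0.28 and 0.87 in DKI, 2.19, 1.53 and 1.20 without CCL17, and 2.12, 1.16 and 1.21 with it. Replicate 1 was the highest Il5 library in both groups of the CCL17 experiment. The RPKM of Il13 was 49.9 to 128 times that of Il5. An antisense gene model, Gm12214, covers 27.1% of the Il5 exon length. Strand use in the authors' counting is not given in the sources used here, so reads of the 2 genes cannot be told apart there.

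**Figure D2:**
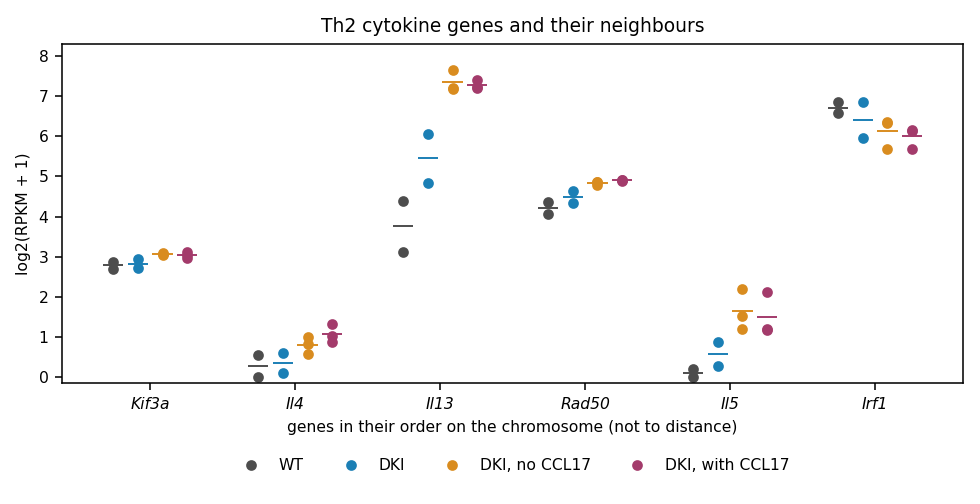
Levels of the Th2 cytokine genes and their measured neighbours on chromosome 11, in chromosome order and on a log2(RPKM + 1) axis. Points are the 10 Th17 libraries, coloured by group, and bars are group means. Il13 reaches 7.66 while Il4 stays at or under 1.32 in every library, and Kif3a and Rad50 span narrow ranges.

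Il9 encodes a mast cell and T cell growth factor, and Il24 a cytokine of the IL-10 family. Il9 stood at 0 and 0.45 in WT, 0 and 1.01 in DKI, 0.47, 1.06 and 1.05 without CCL17, and 0.91, 0.96 and 1.20 with it, on 0 to 11 estimated reads per library. Il24 stood at 0 and 1.16 in WT, 0.58 and 1.13 in DKI, 1.08, 1.90 and 1.27 without CCL17, and 1.18, 1.52 and 1.28 with it, on 0 to 43 reads. For both genes the lower of the 2 libraries was replicate 1 in WT and in DKI, and these 2 groups overlapped.

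Gata3 was expressed at a moderate level everywhere, at 5.06 and 5.01 in WT, 4.68 and 4.92 in DKI, 4.40, 4.28 and 4.31 without CCL17, and 4.59, 4.46 and 4.25 with it. It varied least of the 9 genes, with a range of 0.81 over the 10 libraries, and its highest libraries were those with the least Il13. Il1rl1 stood at 3.71 and 3.39 in WT, 3.51 and 2.86 in DKI, 1.96, 2.23 and 2.12 without CCL17, and 2.26, 2.32 and 2.04 with it, and was lower in all 6 libraries of the CCL17 experiment than in the other 4.

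Ccr8 encodes a chemokine receptor of Th2 cells and of regulatory T cells in tissues. It stood at 5.20 and 4.69 in WT, 5.51 and 4.15 in DKI, 4.65, 4.48 and 4.61 without CCL17, and 4.73, 4.41 and 4.46 with it. The DKI pair holds both the highest and the lowest of the 10 values. Pparg stood at 0.29 and 0.37 in WT, 0.50 and 1.21 in DKI, 2.86, 2.52 and 2.93 without CCL17, and 2.77, 2.38 and 2.31 with it. All 6 libraries of the CCL17 experiment lay above the other 4, and in RPKM they were at 3.94 to 6.64 against 0.220 to 1.31.

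In the myeloid libraries the T cell cytokine genes were nearly silent. Il5, Il9 and Il24 had no reads there, Il4 was at 0.13 in the APCs and 0 in both monocyte libraries, and Il13 was at 0, 0.21 and 0.30 in bone marrow monocytes, spinal cord monocytes and APCs. Gata3 was at 0, 0.65 and 0.68 and Il1rl1 at 0.04, 0.30 and 0.35 in the same order. Ccr8 was at 0.04, 1.0 and 0.96, and Pparg, which macrophages also use in lipid handling, was at 0.55, 1.42 and 1.0. These groups have no replicates. In RPKM, Pparg in the 3 myeloid libraries was 0.469 to 1.67, below each of the 6 libraries of the CCL17 experiment. No expansion in culture is given for the myeloid cells, and which cells of the cultures held the Pparg reads was not tested.

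The comparison of DKI with WT cells asks how the loss of STAT5 tetramers bears on the Th2 program of Th17 cultures. None of the 5 genes with enough expression to be tested passed limma's test, against a background of 0% of 11078 genes. At an unadjusted p under 0.05 there was 1 of the 5, Il13, against 17% of all genes. Il13 was 5.45 ± 0.86 in DKI and 3.76 ± 0.90 in WT (SD, n = 2 each), a log2 difference of 1.68 (SE 0.45, 95% interval 0.66 to 2.71, adjusted p 0.155), or 3.34-fold in mean RPKM. The difference was 1.05 without WT replicate 1, 1.08 without DKI replicate 2, 2.32 without WT replicate 2 (adjusted p 0.0527) and 2.29 without DKI replicate 1 (adjusted p 0.104). Gata3 differed by -0.24 (95% interval -0.52 to 0.05, adjusted p 0.356) and Il1rl1 by -0.37 (-0.86 to 0.12, adjusted p 0.403). Without DKI replicate 1 these values were -0.12 and -0.69, and without DKI replicate 2 they were -0.36 and -0.041. Ccr8 differed by -0.12 (-0.95 to 0.72, adjusted p 0.882) and Il24 by 0.28 (-0.62 to 1.17, adjusted p 0.735), and both changed sign when 1 library was left out. Il4, Il5, Il9 and Pparg were too low to be tested here, with differences of 0.07, 0.47, 0.28 and 0.53.

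Il13 and Gata3, 2 of the 5 tested genes (40%), had groups that did not overlap, which also held for 39.9% of all genes tested. Over all genes, limma called 123 without WT replicate 2, 4 without DKI replicate 1 and 580 without DKI replicate 2, and none of the 9 genes was among them.

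Added CCL17 made no detectable difference to the 9 genes. All 9 were tested, without pairing of replicates. Of these, 0 passed limma's test against a background of 0% of 11297 genes, and the adjusted p was 0.999 for each. At an unadjusted p under 0.05 there were 0 of the 9, against 3.64% of all genes. The groups overlapped in all 9, whereas 9.49% of all genes tested did not overlap. The interval of the difference with minus without CCL17 was -0.41 to 0.26 for Il13, -0.12 to 0.33 for Gata3, -0.29 to 0.19 for Ccr8 and -0.18 to 0.38 for Il1rl1. It was -0.68 to 0.11 for Pparg, which averaged 2.48 ± 0.25 in cultures that received CCL17 and 2.77 ± 0.22 in those that did not (SD, n = 3 each), and was lower with CCL17 in each of the 3 pairs of equal replicate number. All 10 myeloid markers were also lower with CCL17 (median -0.24) and all 7 B cell markers higher (median 0.14), and none of them was called. The part of myeloid cells in the Pparg values was not tested. For the low genes the intervals were wider, -0.98 to 0.69 for Il5, -0.63 to 0.46 for Il24, -0.30 to 0.63 for Il9 and -0.15 to 0.68 for Il4. The intervals and p-values above are those of the unpaired fit. With the replicate number as a block, limma gave the same differences and called 2 genes of the table and none of the 9. With the block, the adjusted p of the 9 ran from 0.346 for Pparg to 0.802 for Il24.

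**Figure D3:**
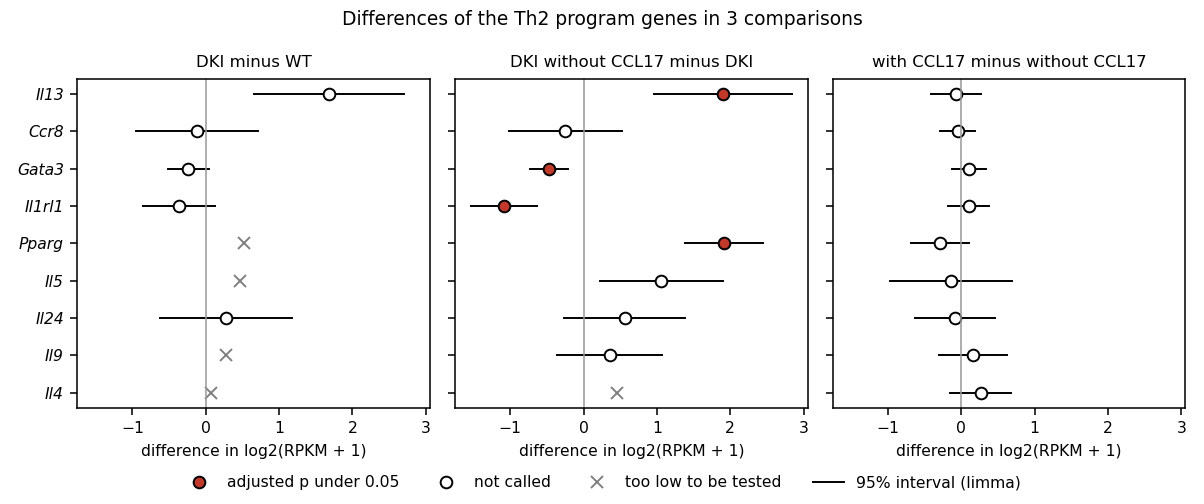
Differences in log2(RPKM + 1) for the 9 genes in the 3 comparisons of Th17 libraries. Circles are limma estimates with their 95% intervals, filled where the adjusted p was under 0.05, and crosses are plain differences of group means for genes too low to be tested. Filled circles appear only in the middle panel, for Il13, Gata3, Il1rl1 and Pparg.

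DKI cells without CCL17 from the CCL17 experiment were then set beside the DKI cells of the WT and DKI experiment. By the titles neither group had added CCL17, so without CCL17 is here the name of a group and not a treatment difference. This comparison shares its libraries with the other 2, and everything that differed between the 2 sets of cultures is part of it and cannot be told apart. Il13 and Pparg rose and Gata3 and Il1rl1 fell, so that 4 of the 8 genes tested were called (50%), against a background of 33.2% of 11507 genes. These genes were chosen with earlier results of these data known, so the count is a description and no test of an excess. Pparg reached an RPKM of 1 in only 1 of the 2 DKI libraries, so the filter favoured its rise. The calls were 2 higher, against 15.4% of all genes, and 2 lower, against 17.8%. Of all calls, 46.5% were higher, and 36.0% after quantile normalization. Pparg was 2.77 ± 0.22 without CCL17 (SD, n = 3) and 0.86 ± 0.50 in DKI (n = 2), a log2 difference of 1.92 (SE 0.23, adjusted p 0.000754), or 6.80-fold in mean RPKM. Il13 was 7.35 ± 0.27 and 5.45 ± 0.86, a difference of 1.90 (SE 0.41, adjusted p 0.0089), or 3.52-fold. Il1rl1 fell by 1.08 (SE 0.20, adjusted p 0.00438), which was 2.51-fold in mean RPKM, and Gata3 by 0.47 (SE 0.11, adjusted p 0.0137), which was 1.41-fold. Il13 was no longer called by limma without DKI replicate 1 (1.29, adjusted p 0.0514), nor Gata3 without DKI replicate 2 (-0.35, adjusted p 0.0798).

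The other 4 tested genes did not pass. Il5 differed by 1.06 (95% interval 0.22 to 1.90, adjusted p 0.0555), Il24 by 0.56 (-0.27 to 1.39, adjusted p 0.270) and Il9 by 0.35 (-0.36 to 1.07, adjusted p 0.421). After quantile normalization, Il5 differed by 0.60 (adjusted p 0.293) and Il24 by 0.16 (adjusted p 0.720), and without DKI replicate 1 Il24 differed by 0.28. Ccr8 differed by -0.25 (-1.02 to 0.52, adjusted p 0.608), by 0.43 without DKI replicate 1, and by -0.93 without DKI replicate 2, where it was called (adjusted p 0.0147). Il4 was too low to be tested. Il5 reached the RPKM of 1 that the test requires only in the group without CCL17, and Pparg, Il24 and Il9 reached it in 1 of the 2 DKI libraries, so that passing the filter already favours a higher level without CCL17 for these genes. Over the 7 genes that reached it in at least 1 library of both groups, which include Pparg, Il24 and Il9, the median difference was 0.35. Over all genes tested, however they passed the filter, it was -0.01. Of the 8 genes, those that reached it in every library were Il13 (1.90), Ccr8 (-0.25), Gata3 (-0.47) and Il1rl1 (-1.08). For 5 of the 8 (62.5%) the groups did not overlap, beside 55.6% of all genes. At an unadjusted p under 0.05 in limma's test there were 5 of the 8, beside 44.3% of all genes. Both counts hold Il13, Gata3, Il1rl1, Pparg and Il5, and for Pparg and Il5 they are in part set by the filter.

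Markers of other cells moved with this comparison. All 10 myeloid markers and all 7 B cell markers rose, of which Ms4a7, Adgre1 and Pax5 reached an RPKM of 1 only without CCL17. Of 6 T cell markers, Trbc2 (-0.76), Lck (-0.55), Cd4 (-0.38) and Cd3d (-0.35) fell. Of 7 Th17 markers, Il17a (2.23, adjusted p 0.0482) and Il22 (1.56, adjusted p 0.00548) rose and 0 fell. Summed myeloid markers were at 21.3 to 35.9 RPKM in DKI, 48.6 to 93.5 in WT and 768 to 1336 in the CCL17 experiment. The same sum was 16110 to 20570 in the myeloid libraries. In DKI, Ms4a7 was at 0 to 0.576 RPKM and Adgre1 at 0.0340 to 0.212 RPKM. Summed B cell markers were at 316 to 694 RPKM in WT and DKI and at 1939 to 4148 in the CCL17 experiment, most of it from Ighm. Mast cells, basophils and eosinophils also make IL-4, IL-13 and ST2. Most markers of these cells were higher in both groups of the CCL17 experiment, without and with CCL17, than in DKI. Of the 9 tested, 6 (Mcpt8, Prg2, Epx, Gata2, Tpsb2 and Fcer1a) passed the filter only through the group without CCL17, so that their rise, by 3.32 for Mcpt8 and 3.23 for Prg2, was in part set by the filter. Of the other 3, Hdc rose (1.07), and Cpa3 (1.04) and Kit (-0.34) did not pass the test. Their 13 markers summed to 19.0 to 41.7 RPKM in WT and DKI, most of it from Kit, and to 47.8 to 88.8 in the CCL17 experiment. Ms4a2, Mcpt4 and Tpsb2 had no reads in WT or DKI. Of the regulatory T cell markers, Foxp3 (-1.47), Lrrc32 (-1.20), Gpr83 (-1.06) and Tnfrsf18 (-0.43) fell and Il2ra rose (0.46). The part of these cells in the changes of Il13, Pparg, Gata3 and Il1rl1 was not tested, and in bulk libraries fewer cells of a type and less RNA per cell cannot be told apart.

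**Figure D4:**
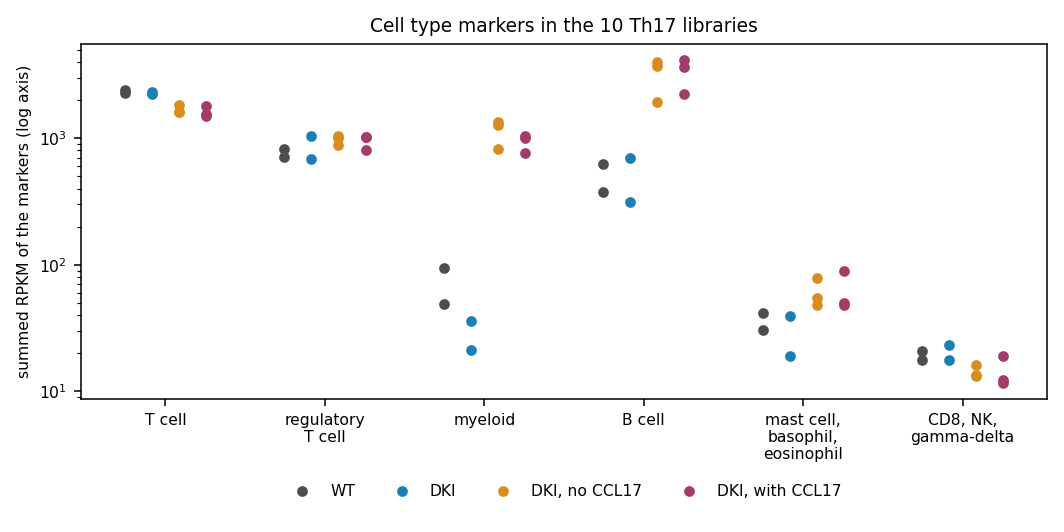
Summed RPKM of 6 lists of cell type markers in the 10 Th17 libraries, on a log axis, with 1 point per library coloured by group. Myeloid and B cell markers lie higher in all 6 libraries of the CCL17 experiment than in the WT and DKI libraries, and T cell markers lie lower. Ighm makes up most of the B cell sum, and Il2ra and Ctla4 most of the regulatory T cell sum.

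Lists of genes around the Th2 program were described in the same fits. In the DKI against WT and the CCL17 comparisons, none of their genes passed limma's test. In the comparison of the 2 DKI groups without CCL17, whose counts are to be read beside the 15.4% of all genes that rose and the 17.8% that fell, 6 receptor chains of the 9 genes' cytokines reached an RPKM of 1 in both groups, and of these 2 rose and 1 fell (median -0.04). Il13ra1 and Il5ra also rose but reached it only without CCL17, and with them the median was 0.59. The chains that rose were Csf2rb (3.26), its close relative Csf2rb2 (3.07), Il13ra1 (1.84) and Il5ra (1.09). Csf2rb encodes the common β chain used by the IL-5 receptor. Myeloid or B cells also express these genes, and the part of those cells in the rise was not tested. The one that fell was Il2rg (-0.49), the common γ chain of the IL-4 and IL-9 receptors. Reads of Csf2rb and Csf2rb2, near-identical copies, may have been split between them.

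Of 11 tested genes of IL-4 and alarmin signalling, 0 rose and 5 fell (median -0.30). These were the kinase genes Jak3 (-0.85) and Jak1 (-0.52), Il17ra (-0.62), the adaptor Myd88 (-0.48) used by ST2, and Stat6 (-0.30, adjusted p 0.0498). Among 14 Th2 transcription regulators, Junb (0.61) and Bhlhe41 (1.48), which reached an RPKM of 1 only without CCL17, rose, and Tcf7 (-1.43), Notch1 (-0.54) and Ikzf1 (-0.36) fell. Maf (0.36, adjusted p 0.153), Irf4 (0.40, adjusted p 0.304) and Batf (0.07, adjusted p 0.725) did not pass. Of 9 Th2 antagonists, Socs5 (-0.51) and Bcl6 (-0.47) fell.

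Among 11 other Th2 cytokine and surface genes, Csf2 (1.84), Il6 (1.60), Il3 (1.49) and Ccr4 (0.50) rose and Ecm1 (-0.81) fell (median 0.55). Of 6 neighbours of the Th2 cytokine genes that reached an RPKM of 1 in both groups, Uqcrq (0.70), Septin8 (0.61) and Rad50 (0.35) rose and Slc22a5 (-0.49) fell. Slc22a4 (0.78) rose and reached it only without CCL17. Kif3a and Irf1, the flanking genes of the cluster, did not pass. Of 11 PPARγ partners and lipid genes that reached an RPKM of 1 in both groups, 4 rose and 1 fell (median 0.0012). The fatty acid binding protein genes Fabp4 (2.12) and Fabp5 (1.70), the droplet coat gene Plin2 (1.61) and Acsl1 (1.39) rose, and the coactivator gene Ppargc1b (-0.47) fell. The lipid uptake genes Cd36 (3.69) and Lpl (1.73) rose and reached it only without CCL17. Macrophages express these lipid genes as well, and myeloid markers rose in the same comparison, as given above. The part of myeloid cells in the rise of the lipid genes was not tested.

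Over the 10 Th17 libraries, Il13, Pparg and Il5 varied against Gata3 and Il1rl1, given here as a description since the libraries come in 2 sets that shift many genes. Pearson's r of Il13 was 0.95 with Pparg, 0.90 with Il5 and -0.97 with Il1rl1 (n = 10 libraries). Gata3 correlated at 0.87 with Il1rl1 and at -0.85 with Il13. Within the 6 libraries of the CCL17 experiment alone, r of Il13 was 0.88 with Il5, 0.47 with Pparg, -0.52 with Il1rl1 and 0.39 with Gata3. Among 11158 genes, those with a pattern most like Il13 by r over the 10 libraries were Ska1, Csgalnact1 and Wdr36 (all 0.99), and for Pparg they were Mrfap1, Gsdme and Pfdn1 (0.99, 0.99 and 0.99). For Il1rl1 they were Ss18l1, Rgp1 and Sult1a1 (0.99 each), for Gata3 Usp38, Wdr19 and Grap2 (0.98 to 0.99), and for Ccr8 Zbtb7b, Klri2 and Gtdc1 (0.95 to 0.96). For the lower genes, the most alike was Itgb5 for Il5 (0.98), Bnip2 for Il24 (0.96), Ythdf1 for Il9 (0.97) and Gga2 for Il4 (0.93).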

How the data were processed

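Gene expression was measured by mRNA sequencing (KAPA mRNA HyperPrep libraries, per the labels' protocols). Subread, featureCounts and mouse build mm10 are named in the submitters' processing notes, without versions or settings. The deposited table holds log2(RPKM + 1) for 21073 genes, with the base and offset read from the values. Genes without reads carried 0.0001, set to 0 here. Symbols came from Entrez identifiers, of which 20857 matched the RefSeq gene table and 216 did not. The column of the spinal cord APCs is named for monocyte-derived cells and was matched as the only such sample. Read totals were estimated from the steps between low values (74.7% to 76.7% of low genes were whole within 0.1 reads, where evenly spread values would give 20%).

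Comparisons used limma 3.58.1 in R 4.3.3 (eBayes with trend) on the log2 values with a pseudocount of 1, and Benjamini-Hochberg adjustment over all genes tested, called under 0.05. Folds on this scale understate changes of low genes. A gene was tested only if 2 or more of the compared libraries (3 for CCL17) reached an RPKM of 1. The DKI against WT comparison and that of the 2 DKI groups without CCL17 were contrasts among all 10 Th17 libraries, and CCL17 used its own 6. Residuals of equal replicate numbers correlated at 0.77, 0.51 and 0.52 in the CCL17 experiment, which was taken as pairing. The main CCL17 fit left this pairing out, and the replicate block held it. Replicates 2 and 3 also correlated across numbers (0.50 and 0.53). The procedure was tested on simulated data. Members and lists were chosen with earlier results of these data known. Named were all 9 genes, the called genes of each list around the Th2 program, Il17a, Stat5a and Stat5b, and the 3 genes most alike by Pearson's r (1 for low genes). Cell type markers were summarised by counts and sums, and the single markers named, as well as Maf, Irf4, Batf, Kif3a and Irf1, were chosen after their values were seen. Alternatives were another pseudocount, 2 filters, 2 scalings, other library sets in the fit, the replicate block and leaving out each library.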

Additional observations from a re-analysis of the deposited data

How the results depend on the processing

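Of 250 values recomputed for single genes under the alternatives, 231 kept their direction and side of the threshold, 5 lost a call, 2 gained one and 12 changed sign, none of the 12 called on either side. Of the 231, 100 were from the CCL17 comparison and 48 from DKI against WT. The main fits called no gene there, so a gene that stayed uncalled counted as kept. The comparison of the 2 DKI groups gave the remaining 83. Settings in which a gene failed the filter gave no value. For DKI against WT, limma called 0 genes, 7 with quantile normalization and 1281 with the replicate block, 1 of them among the 9 (Il13, 1.68, adjusted p 0.00905). Leaving out 1 library gave 0 to 580. Whether equal numbers of WT and DKI libraries mark pairs is not given in the sources used here. With 2 libraries a group, the residuals give only 1 value of r (0.45, or -0.45 across numbers), which cannot decide it. With 1 library left out, Ccr8 ranged from -0.80 to 0.56 and Il24 from -0.30 to 0.55, positive for Ccr8 without WT replicate 1 or DKI replicate 2 and negative for Il24 without WT replicate 1. Il24 failed the filter without WT replicate 2 or DKI replicate 2, so its range leaves out those fits.

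For CCL17 the replicate block called 2 genes. With 1 library left out, Il13 ranged from -0.16 to 0.081, Il5 from -0.46 to 0.13, Il9 from -0.028 to 0.22, Il24 from -0.25 to 0.15 and Ccr8 from -0.15 to 0.011. The Il9 range leaves out 3 fits in which Il9 failed the filter. These lacked replicate 2 or 3 without CCL17, or replicate 3 with CCL17.

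For the 2 DKI groups without CCL17, 3823 genes were called, 2423 in a fit of the compared libraries only and 833 with the replicate block. The block kept 1 of the 4 calls among the 9 genes, Pparg (1.83, adjusted p 0.0348), and ended those of Il13 (1.99, adjusted p 0.0567), Il1rl1 (-1.09, adjusted p 0.0935) and Gata3 (-0.46, adjusted p 0.209). Equal numbers across these 2 groups are not given as pairs either (r 0.13 and 0.10), and the replicate without a partner adds nothing to that fit. Leaving out 1 library gave 2513 to 3526. Il9 was at -0.14 with quantile normalization. With 1 library left out Il9 ranged from -0.15 to 0.86 and Ccr8 from -0.93 to 0.43, the changed signs coming without DKI replicate 1. The cause of these changes was not tested, beyond fewer libraries in the fits. Depth limits Il4 and Il9 most, at 20 or fewer estimated reads per library.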
